A study of Mus musculus with 8 samples.

Results

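Aminoacyl tRNA synthetases join each amino acid to its tRNA, and the 41 genes described here are these enzymes together with 2 scaffold proteins of theirs and 4 enzymes that make serine and asparagine. They were chosen by name from the 18193 genes that had a probe set of their own: 9 genes were listed, and 32 were taken because their symbol has the form that mouse synthetase genes carry. In the cytosol several synthetases sit together in the multisynthetase complex, held by the scaffold proteins, and the others work as free enzymes. Mitochondria use a separate set, mostly encoded by nuclear genes whose symbol ends in 2. Serine is made from a glycolytic intermediate by Phgdh, Psat1 and Psph in that order, and Asns makes asparagine from aspartate. When charged tRNA runs short, the kinase Gcn2 (gene Eif2ak4) starts the integrated stress response, in which the transcription factor Atf4 is known to raise Asns, the serine enzymes and many cytosolic synthetases.

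The samples were germinal centre B cells sorted from lymph nodes of C57BL/6 mice 12 days after a subcutaneous immunization with NP-KLH, a hapten on a carrier protein, in alum. In a germinal centre, B cells divide and mutate their antibody genes mainly in the dark zone, and are selected by antigen and T cell help in the light zone. Light zone cells were run on 4 arrays and dark zone cells on 4 arrays, of the Affymetrix 430 2.0 type, numbered by replicate. All cells came from the B220+ CD38- CD95+ gate, and the groups differ by surface Cxcr4 and Cd83. The labels call the arrays of a zone biological replicates and do not say how many mice stand behind each, so the p-values measure the spread between these samples.

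The titles and the gate text of the labels go against each other. The samples titled light zone are described as Cxcr4-high and Cd83-low, and those titled dark zone as Cxcr4-low and Cd83-high. The mRNA of both gate genes followed the titles. Cd83 averaged 7381 ± 195 in light zone cells and 1478 ± 111 in dark zone cells (SD, n = 4 each), and Cxcr4 averaged 804 ± 39.3 in light zone cells and 1571 ± 125 in dark zone cells (SD, n = 4 each). Groups were therefore taken from the titles, and these genes serve only as this check. If the gate text were right and the titles wrong, every direction given here would turn round. Correlations of log2 intensity over the 10547 genes tested below were 0.995 to 0.997 between arrays of a zone and 0.974 to 0.980 between arrays of different zones.

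The differences of the 41 genes between zones were small and of both signs. Of the 40 that were bright enough to test, 7 were higher and 8 were lower in light zone cells, and 25 did not pass (limma, Benjamini-Hochberg adjusted p under 0.05 over 10547 genes). Those 15 are 37.5% of the tested members, beside 43.9% of all tested genes, 24.8% being higher and 19.1% lower in light zone cells, so the share of members that passed lay near the background. With every array centred on its median, 8 members were higher and 5 were lower in light zone cells, since Psat1, Aars and Sars lost their calls and Sars2 gained one. The median difference, light zone minus dark zone on the log2 scale, was 0.004 for the members and 0.006 for all tested genes, and the median size of the difference without its sign was 0.14 for members and 0.17 for all tested genes. At a difference of 1.5-fold or more, 0 members were higher and 1 member, Fars2, was lower in light zone cells, where 6.19% and 3.86% of all tested genes were. The 95% interval of the difference lay inside 1.5-fold either way for 95% of the members and for 81.0% of all tested genes. All 4 light zone arrays lay above all 4 dark zone arrays for 6 members and below them for 10, where 23.2% and 18.1% of all tested genes did so. Since these are RNA levels of bulk sorted cells, fewer cells with the transcript and less of it per cell cannot be told apart. Only Mars2, the mitochondrial methionine enzyme, was too dim to test, at 13.0 ± 0.454 in light zone cells and 11.7 ± 0.208 in dark zone cells (SD, n = 4 each).

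**Figure D1:**
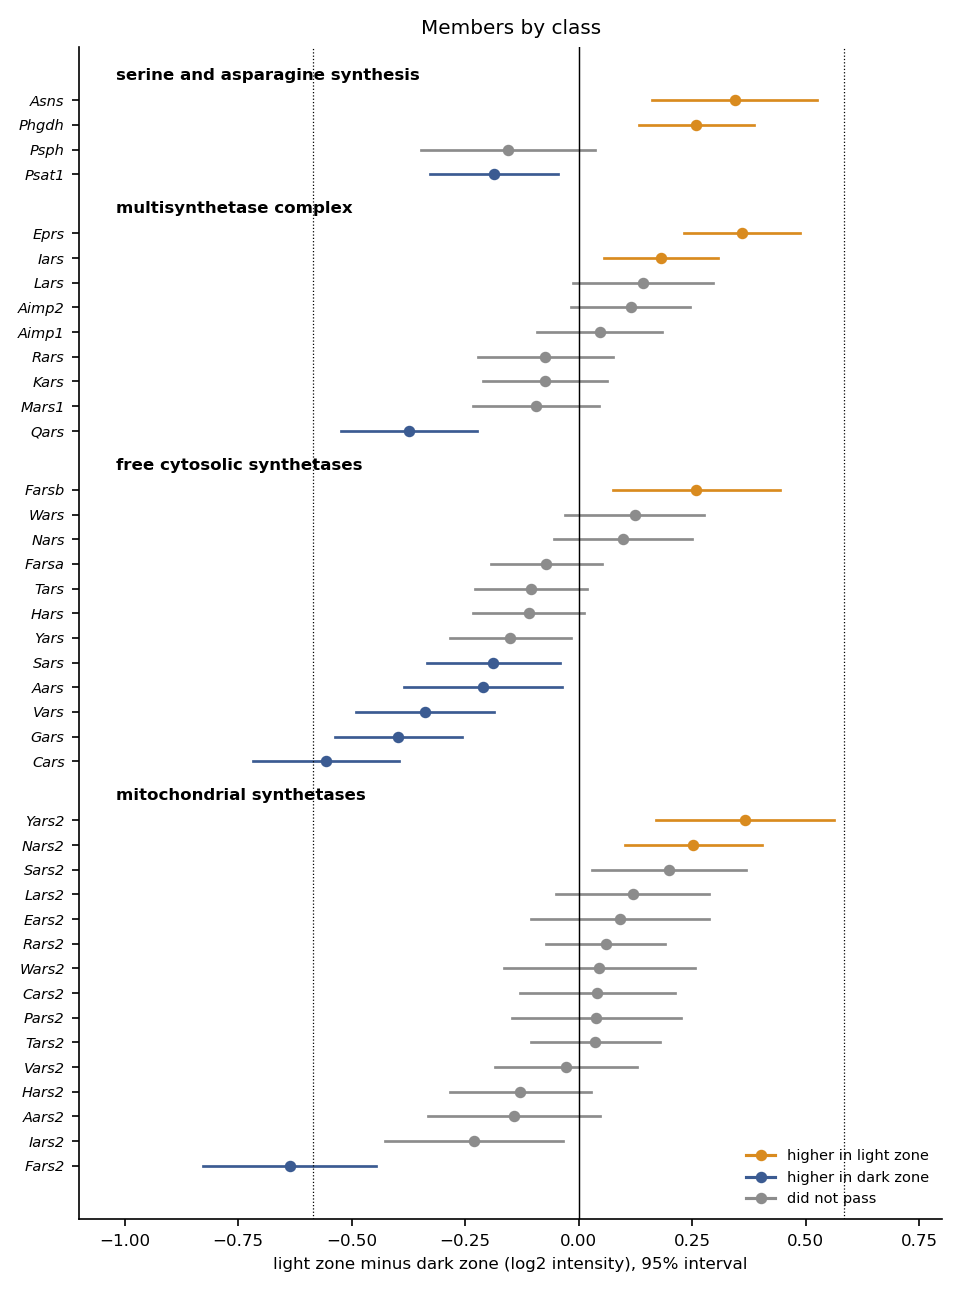
Difference of each tested member between light zone and dark zone (light minus dark, log2, x axis), with its 95% interval from limma (bars); dotted lines mark 1.5-fold and colours mark the direction of those that passed. Of the 40 members, 29 lie within 0.25 of 0, and Fars2 at -0.64 and Yars2 at 0.37 are the ends of the range.

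The 4 enzymes of serine and asparagine synthesis differed in both directions: Phgdh and Asns were higher in light zone cells, Psat1 was lower, and Psph did not pass the test. That is 75% of only 4 genes, beside 43.9% of all tested genes that passed. Phgdh, which takes the first step of the serine route, had an intensity of 2468, 2599, 2605 and 2741 in light zone arrays, against 2207, 2149, 2104 and 2238 in dark zone arrays. Every light zone array was above every dark zone array, and the difference was 0.26 (SE 0.06, adjusted p = 0.0032). Psat1, the transaminase that follows it, had 1905, 2174, 2086 and 2100.1 in light zone arrays, against 2244, 2265, 2386 and 2511 in dark zone arrays. Its zones did not overlap either, but in the opposite direction, at -0.19 (SE 0.06, adjusted p = 0.035). The Psat1 call was lost on leaving out light zone array 1, 3 or 4, and likewise dark zone array 3 or 4 (adjusted p = 0.054 to 0.099), and with no intensity filter (adjusted p = 0.052). Psph, the phosphatase that releases serine, had 359, 388, 376 and 362 in light zone arrays, against 494, 411, 401 and 359 in dark zone arrays. Dark zone array 1 was the highest of all arrays and dark zone array 4 the lowest, just under light zone array 1, so the light zone values lay within the range of the dark zone, and the difference was -0.16 (SE 0.09, adjusted p = 0.17) with a 95% interval of -0.35 to 0.04. Without dark zone array 4, Psph passed at -0.22 (adjusted p = 0.049). Asns had 407, 455, 406 and 454 in light zone arrays, against 370.5, 301, 373 and 316 in dark zone arrays. The zones did not overlap, and its difference of 0.34 (SE 0.08, adjusted p = 0.0054) was the largest of these 4 enzymes.

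**Figure D2:**
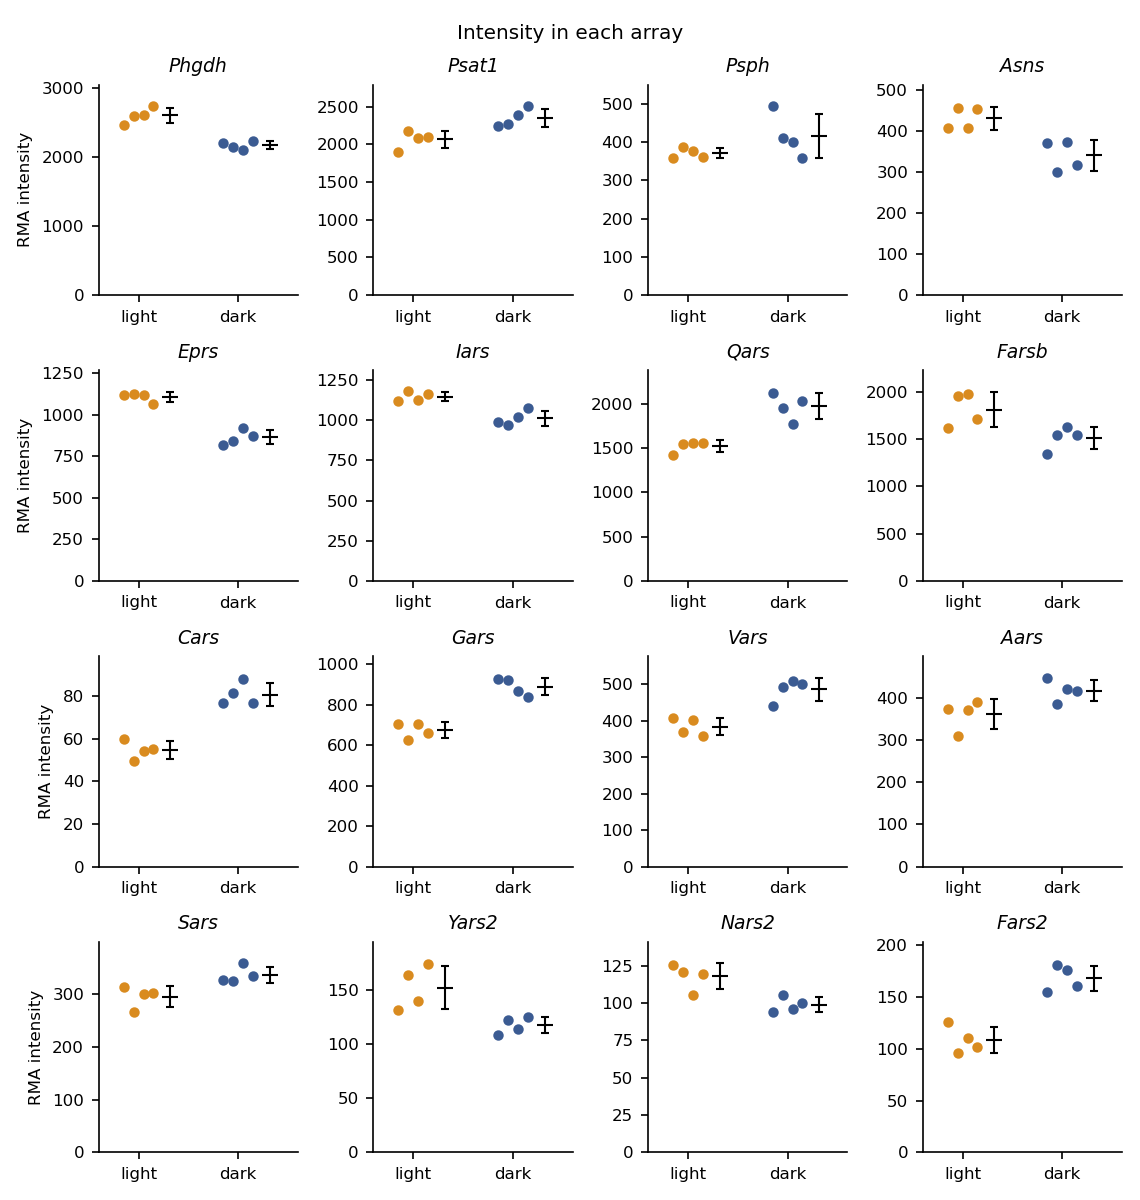
Intensity on each of the 4 light zone arrays (left in each panel) and 4 dark zone arrays (right) for 16 members, as dots, with the mean and SD in black; each y axis starts at 0 and has its own scale. Asns, Phgdh and Eprs lie higher in the light zone, and Qars, Gars, Cars, Vars and Fars2 lie lower, without overlap.

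The letters before the Asns start site hold the motif by which Atf4 and its partners of the C/EBP family are known to act on amino acid genes. It was also searched for in the other members with a promoter window. Promoter windows of 300 bases, reaching 250 before and 50 after the start, were found in RefSeq (GRCm38.p6) for 32 members. The other 9 (Cars, Hars, Hars2, Lars, Nars, Pars2, Rars, Vars and Wars) had no window and were not searched. The core searched was TGATGNAA on both strands, N being any base. It was present in Aars, Asns, Gars, Iars, Tars and Yars, which is 6 of the 32 (18.8%), and in 4.51% of 27025 genes with a window. The part of each window from 120 bases before to 20 bases after the start is shown 5′ to 3′ on the gene's strand, with the core in capitals.
Asns, chr6:7693190-7693329, minus strand: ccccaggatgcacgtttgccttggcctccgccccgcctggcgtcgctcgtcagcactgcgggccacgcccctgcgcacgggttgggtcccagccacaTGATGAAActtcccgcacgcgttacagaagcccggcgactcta
Gars, chr6:55037881-55038020, plus strand: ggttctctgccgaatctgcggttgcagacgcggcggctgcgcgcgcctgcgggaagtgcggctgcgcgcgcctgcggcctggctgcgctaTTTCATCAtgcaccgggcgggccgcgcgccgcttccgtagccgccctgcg
Aars, chr8:111033722-111033861, plus strand: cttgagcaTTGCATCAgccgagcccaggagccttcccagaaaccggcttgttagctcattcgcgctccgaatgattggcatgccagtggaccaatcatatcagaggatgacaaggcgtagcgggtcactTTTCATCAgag
Iars, chr13:49682010-49682149, plus strand: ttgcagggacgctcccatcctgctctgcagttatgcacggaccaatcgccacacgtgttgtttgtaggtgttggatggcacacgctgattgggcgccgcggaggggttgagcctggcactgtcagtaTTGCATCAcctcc
Tars, chr15:11399639-11399778, minus strand: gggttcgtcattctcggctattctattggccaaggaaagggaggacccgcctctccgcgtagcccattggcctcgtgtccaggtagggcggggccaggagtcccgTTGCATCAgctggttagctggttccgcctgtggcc
Yars, chr4:129189783-129189922, plus strand: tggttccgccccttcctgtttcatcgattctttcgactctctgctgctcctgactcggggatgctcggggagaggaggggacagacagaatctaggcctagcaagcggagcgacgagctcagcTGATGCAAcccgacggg
Capitals read TTGCATCA or TTTCATCA where the core lies on the opposite strand. The core begins 23 bases before the start in Asns, covers 30 to 23 bases before it in Gars and 15 to 8 before it in Tars, and lies just after the start in Iars and Yars, at bases 8 to 15 and 4 to 11. Aars has it on both sides of its start. The 6 genes had differences of both signs: Asns (0.34) and Iars (0.18) were higher in light zone cells, Gars (-0.40) and Aars (-0.21) were lower, and Tars (-0.10) and Yars (-0.15) did not pass. The E-box CACGTG, which Myc is known to bind, is the same on both strands and was present in Aars, Ears2, Farsb, Iars and Tars, 5 of 32 windows (15.6%, against 8.09% of all genes with a window). A match describes these letters only.

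In the multisynthetase complex, 2 of the 9 measured members were higher and 1 was lower in light zone cells, and 6 did not pass, with a median difference of 0.05. The share that passed was 33.3%, beside 43.9% of all tested genes. Eprs, which charges both glutamate and proline tRNA, had 1118, 1125, 1119 and 1061 in light zone arrays, against 819, 844, 917 and 870.4 in dark zone arrays. No array of a zone reached the other zone, and the difference of 0.36 (SE 0.06, adjusted p = 3.9e-04) was the largest on the light zone side among these 9 members. Iars, the isoleucine enzyme, had 1123, 1182, 1125 and 1162 in light zone arrays, against 987, 971, 1020.1 and 1074 in dark zone arrays. Its zones did not overlap, by a narrow margin, at 0.18 (SE 0.06, adjusted p = 0.024). Leaving out light zone array 2 or 4, and likewise dark zone array 2, took the Iars call away (adjusted p = 0.053 to 0.067). Qars, the glutamine enzyme, went the other way, with 1419, 1544, 1560.3 and 1558 in light zone arrays, against 2128, 1955, 1778 and 2029 in dark zone arrays. All its light zone arrays were lower than all its dark zone arrays, at -0.37 (SE 0.07, adjusted p = 9.2e-04). Within the one complex, then, Eprs was about as much higher as Qars was lower.

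The remaining complex members did not pass, and their differences were all under 0.15 in size. Lars, for leucine, was at 0.14 (adjusted p = 0.13), Rars, for arginine, at -0.07 (adjusted p = 0.41), Kars, for lysine, at -0.07 (adjusted p = 0.36), and Mars1, for methionine, at -0.09 (adjusted p = 0.25). The scaffold protein Aimp1 had 1119, 1251, 1170.4 and 1231 in light zone arrays, against 1091, 1197, 1212 and 1122 in dark zone arrays, and its zones overlapped (difference 0.05, 95% interval -0.09 to 0.18). Aimp2, the second scaffold protein, had 416, 395, 384 and 409.7 in light zone arrays, against 395, 369, 366 and 352 in dark zone arrays. Dark zone array 1 lay among the light zone values, and the Aimp2 difference of 0.11 had a 95% interval of -0.02 to 0.25. Eef1e1, which encodes the remaining scaffold protein of the complex (AIMP3) and is no member by the symbol rule, had 972, 1007, 932 and 1009.8 in light zone arrays, against 614, 651, 665 and 621 in dark zone arrays. It was higher on every light zone array, at 0.62 (SE 0.06, adjusted p = 4.4e-06), a larger difference than that of any measured synthetase of the complex.

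Of the 12 free cytosolic enzymes, 50% passed, beside 43.9% of all tested genes. Among the 12, 5 were lower and 1 was higher in light zone cells, and 6 did not pass, with a median difference of -0.13. Cars, the cysteine enzyme, had the largest difference of these, with 60.1, 49.7, 54.5 and 55.3 in light zone arrays, against 76.7, 81.3, 88.0 and 76.6 in dark zone arrays. The zones were well apart, at -0.56 (SE 0.07, adjusted p = 7.4e-05). Gars, which charges glycine in cytosol and mitochondria, had 705, 625, 706 and 661 in light zone arrays, against 926, 920.4, 866 and 839 in dark zone arrays. Its zones did not overlap and its difference was -0.40 (SE 0.06, adjusted p = 3.6e-04). Vars, the valine enzyme, had 407, 369, 402 and 358 in light zone arrays, against 439, 492, 508 and 502 in dark zone arrays. It too was lower on every light zone array, at -0.34 (SE 0.07, adjusted p = 0.0019). 

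Aars and Sars were lower in light zone cells by a smaller step. Aars, the alanine enzyme, had 374, 309.6, 369.8 and 390.1 in light zone arrays, against 446, 386, 419.9 and 415 in dark zone arrays. Light zone array 4 exceeded dark zone array 2, so the zones overlapped, and the difference was -0.21 (SE 0.08, adjusted p = 0.049). That call held only on leaving out light zone array 4 or dark zone array 2, and without any other array it was lost (adjusted p = 0.060 to 0.13), and without light zone array 2 the difference was -0.14. It was also lost with no intensity filter (adjusted p = 0.066) and with array weights (adjusted p = 0.067). Sars, the serine enzyme, had 313, 266, 300 and 301 in light zone arrays, against 327, 324, 358 and 334 in dark zone arrays. Its light zone arrays were all lower, at -0.19 (SE 0.07, adjusted p = 0.039), and the call was lost without light zone array 2, 3 or 4 or dark zone array 3 or 4 (adjusted p = 0.057 to 0.11). With its probe sets averaged, Sars was at -0.08 (adjusted p = 0.21), and with no intensity filter its adjusted p was 0.058.

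Farsb was the only free cytosolic enzyme higher in light zone cells. It encodes the beta subunit of the phenylalanine enzyme and had 1610.5, 1956, 1970.2 and 1707 in light zone arrays, against 1344, 1539, 1624 and 1538 in dark zone arrays. Light zone array 1 lay below dark zone array 3, so the zones overlapped, and the difference was 0.26 (SE 0.08, adjusted p = 0.025). Without light zone array 2 or 3 or dark zone array 1 the Farsb call was lost (adjusted p = 0.070 to 0.076). Farsa, the alpha subunit of the same enzyme, was at -0.07 (adjusted p = 0.33). The other enzymes that did not pass were Wars, for tryptophan, at 0.12 (adjusted p = 0.18), Nars, for asparagine, at 0.10 (adjusted p = 0.28), Tars, for threonine, at -0.10 (adjusted p = 0.16), Hars, for histidine, at -0.11 (adjusted p = 0.13), and Yars, for tyrosine, at -0.15 (adjusted p = 0.065). Tars, Hars and Yars were lower on every light zone array all the same. Yars passed without light zone array 1 (-0.18, adjusted p = 0.047). Over all 21 cytosolic synthetases and scaffold proteins the count that passed was 9 (42.9%, beside 43.9% of all tested genes), and it was 5 without light zone array 2.

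Among the 15 tested mitochondrial enzymes, 2 were higher and 1 was lower in light zone cells, and 12 did not pass, with a median difference of 0.04. The share that passed was 20%, beside 43.9% of all tested genes. Fars2, the phenylalanine enzyme, had the largest difference of all 40 tested members, with 126, 96.4, 110 and 101 in light zone arrays, against 155, 180.5, 176 and 160.2 in dark zone arrays. The zones were clear of each other, at -0.64 (SE 0.09, adjusted p = 1.0e-04), which is 1.55-fold higher in the dark zone. Yars2, for tyrosine, had 132, 163, 139.7 and 174 in light zone arrays, against 109, 122, 114 and 125 in dark zone arrays. Its light zone arrays were spread more widely than its dark zone arrays but lay above all of them, at 0.37 (SE 0.09, adjusted p = 0.0059). Nars2, for asparagine, had 126, 121, 106 and 119.7 in light zone arrays, against 93.9, 105, 96.2 and 100.3 in dark zone arrays. Light zone array 3 lay just above the highest dark zone array, and the difference was 0.25 (SE 0.07, adjusted p = 0.011). Iars2, for isoleucine, had 217, 198, 192 and 171 in light zone arrays, against 258, 238, 207 and 210.5 in dark zone arrays. Light zone array 1 lay among the dark zone values and the difference of -0.23 (SE 0.09, adjusted p = 0.055) did not pass, although it did without light zone array 1 or dark zone array 3 or 4 (adjusted p = 0.028 to 0.046). Sars2, for serine, missed in the other direction at 0.20 (adjusted p = 0.055) and passed without light zone array 4 or dark zone array 1 (adjusted p = 0.017 to 0.030). Ears2, for glutamate, was at 0.09 (adjusted p = 0.44), and passed without dark zone array 1 (0.19, adjusted p = 0.038). Without dark zone array 1, 5 mitochondrial enzymes passed. The other 9 tested enzymes ranged from -0.14 for Aars2 to 0.12 for Lars2, and none of them passed.

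For 13 amino acids the cytosolic and the mitochondrial enzyme are encoded by separate genes measured here. Both genes were tested for 12 amino acids. In 0 pairs did both enzymes pass, in 7 pairs 1 of them did, and in 5 pairs neither did. Beside these counts, 43.9% of all tested genes passed. The signs were alike in 6 pairs and opposite in 6. Tyrosine was among the pairs opposite in sign, with Yars at -0.15, which did not pass, and Yars2 at 0.37. Isoleucine was another, with Iars at 0.18 and Iars2 at -0.23, which did not pass. For phenylalanine, where the cytosolic enzyme has subunits, Farsb was at 0.26 and Farsa at -0.07 while Fars2 was at -0.64. For serine, the enzyme that charges its tRNA in the cytosol (Sars, -0.19) was lower in light zone cells, while Sars2 (0.20) did not pass. Of the enzymes that make serine, Psat1 (-0.19) was lower and Phgdh (0.26) was higher. The Sars and Psat1 calls were each lost on leaving out any of several arrays.

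Of the 12 cytosolic synthetase genes known as Atf4 targets, 2 were higher and 4 were lower in light zone cells and 6 did not pass, with a median difference of -0.10. Of the 7 other cytosolic synthetase genes, 1 was higher and 2 were lower and 4 did not pass, with a median of -0.07. The share that passed was 50% of the Atf4 targets and 42.9% of the others, beside 43.9% of all tested genes. Atf4 itself had 1494, 1167, 1356 and 1303 in light zone arrays, against 1477, 1237, 1444 and 1295 in dark zone arrays, with overlapping zones and a difference of -0.04 (adjusted p = 0.76, 95% interval -0.22 to 0.15). Atf4 is controlled largely at translation, which these arrays do not measure.

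Several members carried more than 1 probe set, and these did not always give the same answer. The members had 84 probe sets, 76 of them bright enough to test, and 24 members had several such. In 16 of the 24 all probe sets had the same sign, and in 18 all fell on the same side of the threshold (adjusted over 22519 probe sets). All 4 probe sets of Phgdh passed, at 0.19 to 0.28, and so did all 4 of Eprs, at 0.22 to 0.36. The dimmer probe sets of Asns (0.44), Psat1 (-0.30), Yars2 (0.30) and Iars (0.47) also passed with the sign of the brightest. The dimmer probe set of Aars passed (-0.47, adjusted p = 0.0014), but its brightest did not when adjusted over probe sets (-0.21, adjusted p = 0.059). Farsb was split: its other probe sets were at 0.10 and 0.06, which did not pass, and at 0.88, which did (adjusted p = 2.3e-05). Qars was split as well, at -0.63 (adjusted p = 3.4e-05) and -0.03 (adjusted p = 0.82) beside the brightest at -0.37. Further probe sets of Fars2 (-0.14, adjusted p = 0.42) and Cars (-0.15, adjusted p = 0.18) did not pass. For Sars, neither the brightest (-0.19, adjusted p = 0.0502) nor the dimmer probe set (0.03, adjusted p = 0.73) passed when adjusted over probe sets. Cars2 had 1 that passed at -0.23 (adjusted p = 0.027) while its brightest did not. Among the members that passed, the brightest probe sets of Phgdh, Psat1, Farsb, Qars, Aars, Iars and Yars2 are of types that the array's naming marks as able to bind related transcripts. With such types left out, Farsb was at 0.06 (adjusted p = 0.64), Phgdh had no probe set left, and the calls of the other 5 were kept.

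**Figure D3:**
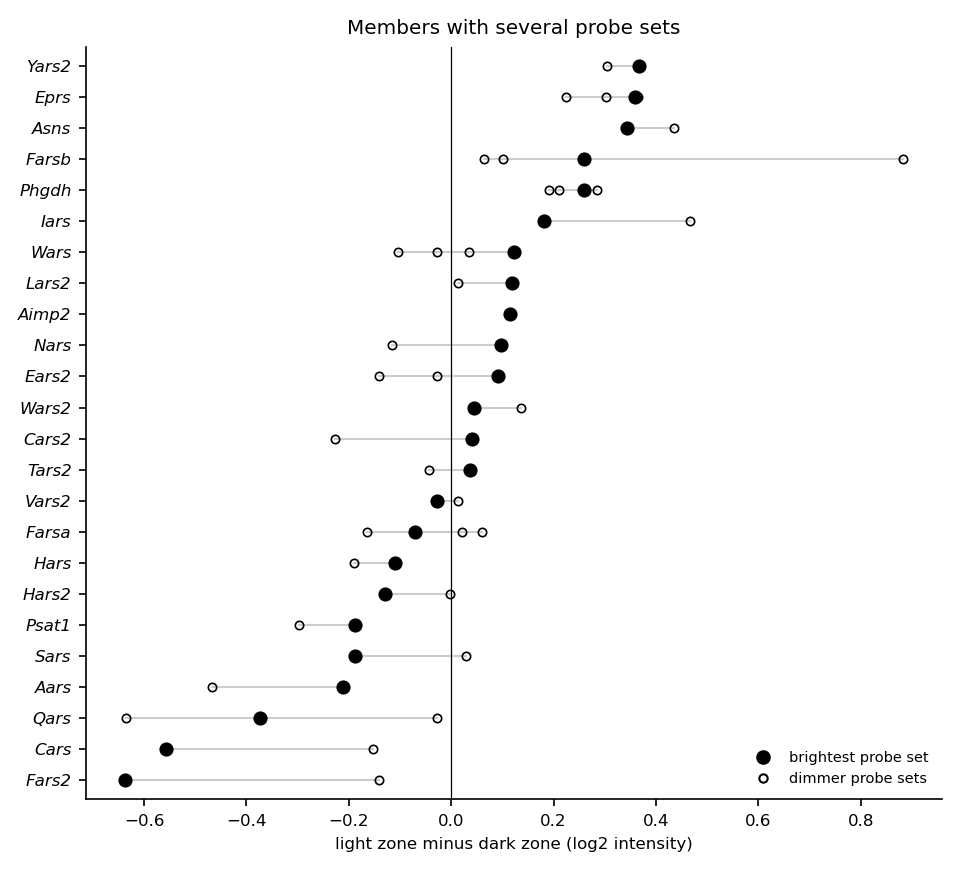
Difference between light zone and dark zone (light minus dark, log2) for every probe set above the intensity filter of the 24 members with several; filled dots are the brightest probe set, open dots the dimmer ones. Eprs and Phgdh dots cluster on the light zone side, and those of Farsb and Qars spread over more than 0.5.

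The genes next to the synthetases in metabolism and translation were of both kinds as well: of 172 tested genes in 9 lists, 44 were higher and 32 were lower in light zone cells and 96 did not pass, with a median difference of 0.04. These lists hold partners, metabolic enzymes, transporters and factors, and were set with earlier results of these data known. Their counts and medians stand beside those of all tested genes (24.8% higher and 19.1% lower, median 0.006).

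**Figure D4:**
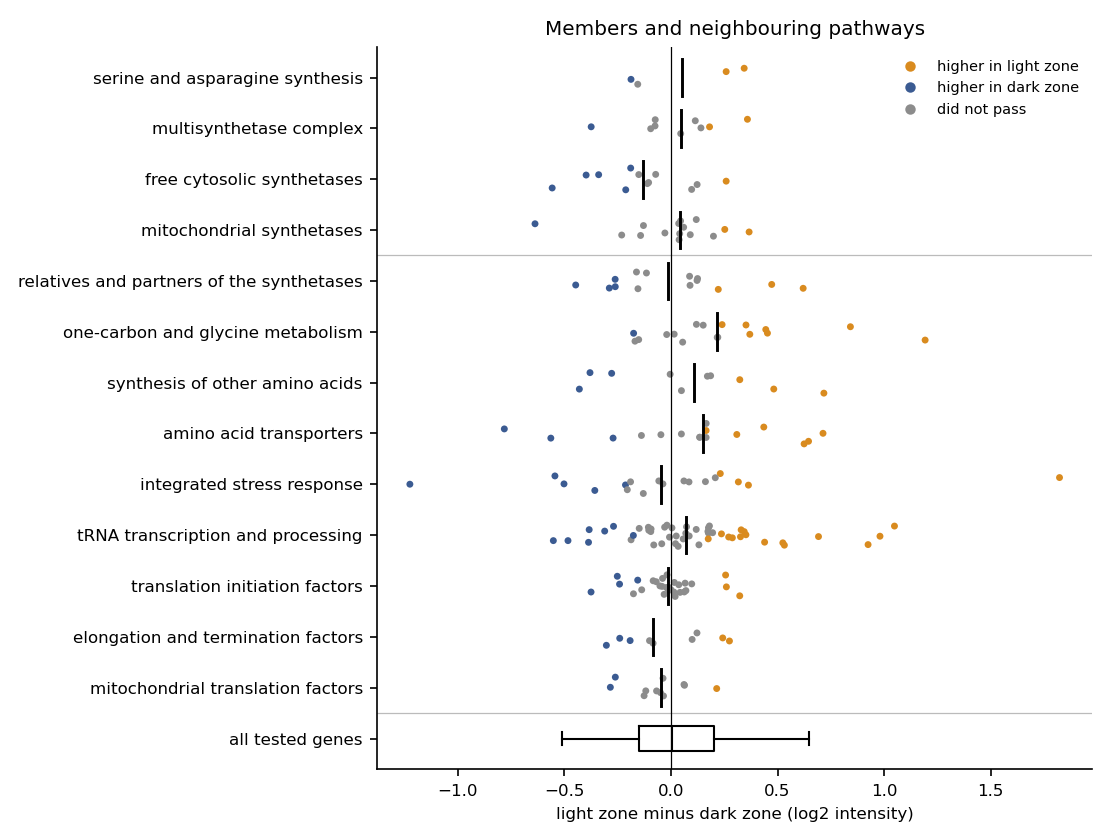
Difference between light zone and dark zone (light minus dark, log2, x axis) of each tested gene (dots) in the member classes and the other lists, with the list median as a black bar; the box shows the quartiles and the whiskers the 5th to 95th percentile of all tested genes. Medians lie between -0.13 for the free cytosolic synthetases and 0.22 for one-carbon and glycine metabolism.

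One-carbon metabolism takes its carbon largely from serine. In one-carbon and glycine metabolism, 7 of 17 tested genes were higher and 1 was lower in light zone cells and 9 did not pass, with a median of 0.22. Slc19a1, the folate carrier, was at 1.19 (SE 0.07, adjusted p = 6.1e-08), and Gcsh, a protein of the glycine cleavage system, at 0.84 (SE 0.06, adjusted p = 4.5e-07). Tyms, which makes thymidylate, was at 0.45 (adjusted p = 4.0e-04), and Mthfd1, the cytosolic folate enzyme, at 0.44 (adjusted p = 6.1e-05). Cbs, which uses serine to make cystathionine, was the one lower gene, at -0.17 (adjusted p = 0.036). Shmt2, which turns serine into glycine in mitochondria, had 738, 775, 791 and 781 in light zone arrays, against 597, 597, 626 and 597 in dark zone arrays. Its difference of 0.35 (SE 0.05, adjusted p = 2.7e-04) rested on the probe set type: with types that can bind other transcripts left out, it was -0.10 (adjusted p = 0.27). Mthfd2, the next mitochondrial enzyme, was at 0.15 (adjusted p = 0.11) and passed without light zone array 3 (adjusted p = 0.0498). The Cbs call was lost without light zone array 1, 2 or 3 and without dark zone array 2 or 3 (adjusted p = 0.063 to 0.10), and with no filter, medians centred, probe sets averaged or a variance trend (adjusted p = 0.0502 to 0.069). Tyms was at 0.06 with its probe sets averaged (adjusted p = 0.44).

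Transporters bring in amino acids for charging. Among the transporters 6 of 16 tested genes were higher and 3 were lower in light zone cells and 7 did not pass, with a median of 0.15. Slc7a5 and Slc3a2 are the chains of the large neutral amino acid transporter. Slc7a5 had 498, 545, 528 and 553 in light zone arrays, against 306, 312, 352 and 327 in dark zone arrays, and its difference was 0.71 (SE 0.07, adjusted p = 3.5e-06). Slc3a2 had 563, 523, 546 and 517 in light zone arrays, against 350.2, 320.1, 364 and 339.7 in dark zone arrays, at 0.65 (SE 0.06, adjusted p = 5.3e-06). Neither showed any overlap between zones. Slc38a2, a carrier of small neutral amino acids, was also higher, at 0.62 (adjusted p = 1.6e-05), while its relative Slc38a1 was lower, at -0.27 (adjusted p = 0.0094). Slc36a4 (-0.78, adjusted p = 1.2e-05) and Slc43a2 (-0.56, adjusted p = 7.7e-06) were lower. In the list for synthesis of other amino acids, 3 of 10 tested genes were higher and 3 lower and 4 did not pass, with a median of 0.11. These counts include Cad, which makes pyrimidines and not an amino acid. There Cad, which uses glutamine and aspartate for pyrimidines, was at 0.72 (adjusted p = 3.5e-06), Aldh18a1, of proline synthesis, at 0.48 (adjusted p = 2.8e-04), Glul, which makes glutamine, at -0.43 (adjusted p = 5.6e-04), and Got2, the mitochondrial aspartate transaminase, at -0.38 (adjusted p = 3.3e-04). Aldh18a1 did not pass with plain probe sets (adjusted p = 0.76).

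The sensors and targets of the integrated stress response moved in both directions. Of 18 tested genes, 4 were higher and 5 were lower in light zone cells and 9 did not pass, with a median of -0.05. Ddit4, a stress-induced inhibitor of mTORC1, was at 1.82 (SE 0.21, adjusted p = 2.2e-05). Eif2ak3, the kinase Perk of the endoplasmic reticulum, had 1109, 1119.6, 1096 and 1066 in light zone arrays, against 2968, 2497, 2412 and 2414 in dark zone arrays, and was lower on every light zone array, at -1.22 (SE 0.07, adjusted p = 9.8e-08). The amino acid sensor Eif2ak4 was lower as well, at -0.50 (adjusted p = 1.2e-04), as was Cebpg, a partner of Atf4, at -0.54 (adjusted p = 6.7e-04). Ddit3, the transcription factor Chop, was higher at 0.36 (adjusted p = 0.012), Ppp1r15a, which helps remove the phosphate that the kinases place, at 0.32 (adjusted p = 0.0086), and Impact, which restrains Gcn2, at 0.23 (adjusted p = 0.0097). Eif2ak4 did not pass with its probe sets averaged (adjusted p = 0.82).

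Among relatives and partners of the synthetases, 3 of 14 tested genes were higher and 4 were lower in light zone cells and 7 did not pass, with a median of -0.01. Apart from Eef1e1, Xpot, the exporter of tRNA from the nucleus, was higher at 0.47 (adjusted p = 4.5e-05), and Mtfmt, which formylates the mitochondrial initiator tRNA, at 0.22 (adjusted p = 0.011). Dtd1, which removes D-amino acids from tRNA, was lower at -0.45 (adjusted p = 1.5e-04), and Qrsl1, a subunit of the mitochondrial enzyme that makes glutaminyl tRNA, at -0.29 (adjusted p = 0.0043). Mtfmt did not pass with its probe sets averaged (adjusted p = 0.28).

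In the transcription and processing of tRNA, 15 of 48 tested genes were higher and 7 were lower in light zone cells and 26 did not pass, with a median of 0.07. The pseudouridine synthases Pus7 (1.05, adjusted p = 7.5e-07) and Pus3 (0.92, adjusted p = 6.0e-06), the methyltransferase subunit Trmt61a (0.98, adjusted p = 4.7e-06) and Rpp40 of RNase P (0.69, adjusted p = 1.1e-04) were the higher genes with the largest differences. The lower genes were the RNA polymerase III subunits Polr3c (-0.55, adjusted p = 7.8e-04), Polr3f (-0.48, adjusted p = 5.5e-05) and Polr3g (-0.39, adjusted p = 0.025), Gtf3c3 of transcription factor TFIIIC (-0.38, adjusted p = 0.0036), Maf1, a repressor of the polymerase (-0.27, adjusted p = 0.0054), and Rtcb and Ddx1 of the tRNA ligase (-0.31, adjusted p = 7.2e-04 and -0.18, adjusted p = 0.040). Polr3g was lost without light zone array 2 or 4 and without dark zone array 1, 2 or 3 (adjusted p = 0.055 to 0.072). Ddx1 was kept only without dark zone array 1 or 3 and lost without each of the others (adjusted p = 0.060 to 0.12). With its probe sets averaged Ddx1 was at -0.08 (adjusted p = 0.33), and it was also lost with no filter, medians centred or quantile normalization (adjusted p = 0.061 to 0.064).

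Of 29 tested initiation factors, 3 were higher and 4 were lower in light zone cells and 22 did not pass, with a median of -0.01. The nucleotide exchange factor subunit Eif2b2 was lower at -0.37 (adjusted p = 3.4e-04) and its partner subunit Eif2b3 higher at 0.26 (adjusted p = 0.012). Eif4ebp1, which holds back cap-dependent initiation, was at 0.32 (adjusted p = 0.014), and the helicase Eif4a1 at 0.26 (adjusted p = 0.017). Of 9 elongation and termination factors, 2 were higher and 3 lower, and 4 did not pass, with a median of -0.08. Eif5a (0.27, adjusted p = 0.0065) and Eef1b2 (0.24, adjusted p = 0.028) were the higher ones, and the release factor Etf1 (-0.30, adjusted p = 9.8e-04) and the kinase Eef2k (-0.24, adjusted p = 0.033) were among the lower ones. Of 11 mitochondrial translation factors, 1 was higher and 2 were lower and 8 did not pass, with a median of -0.05: Mtrf1l (0.21, adjusted p = 0.043) was higher, and Gfm1 (-0.28, adjusted p = 0.0025) and Gfm2 (-0.26, adjusted p = 0.028) were lower. Some of these calls needed particular arrays: Eef1b2 was lost without light zone array 2 or 3 and without dark zone array 1 or 3 (adjusted p = 0.052 to 0.080), and Eef2k without light zone array 2 or 4 and without dark zone array 2, 3 or 4 (adjusted p = 0.053 to 0.097). Gfm2 was lost without light zone array 2 or 4 and without dark zone array 1 or 3 (adjusted p = 0.072 to 0.077), and Mtrf1l was kept only without light zone array 2 or dark zone array 3 (adjusted p = 0.069 to 0.11 without the others). With probe sets averaged, Eef2k was at -0.01 (adjusted p = 0.94), and Etf1 (adjusted p = 0.079) and Gfm2 (adjusted p = 0.066) did not pass. Eef2k was also lost with medians centred (adjusted p = 0.053) and with the replicate number as a block (adjusted p = 0.059), and Mtrf1l with no filter (adjusted p = 0.059). Gfm1 did not pass with plain probe sets (adjusted p = 0.34).

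Markers of B cells and of other cells were summed for each array. B cell markers were bright, 7 of 7 tested, with a summed intensity of 25643 to 26790 in light zone arrays, against 21980 to 22463 in dark zone arrays. Of these, Cd22 (0.66), Ebf1 (0.57) and Blk (0.44) were higher in light zone cells. Pax5 (-0.22), Cd79a (0.06), Ms4a1 (0.05) and Cd79b (0.01) did not pass. For germinal centre B cell markers, 7 of 7 tested, the sums were 14577 to 15251 in light zone arrays, against 15633 to 16167 in dark zone arrays. These sums hide differences of both signs. Lmo2 (1.41), Fas (0.23) and Rgs13 (0.21) were higher in light zone cells, and Gcsam (-1.48), Mybl1 (-0.76) and S1pr2 (-0.26) were lower. Bcl6 (-0.14) did not pass. Of the plasma cell list, which matters here because plasma cells make much protein, 8 of 9 markers were bright enough to test. Its sums were 16142 to 17843 in light zone arrays, against 17841 to 18858 in dark zone arrays. In it Irf4 (2.03), Prdm1 (1.37) and Derl3 (0.64) were higher in light zone cells and Mzb1 (-0.29) and Jchain (-0.15) lower. Sdc1 (0.14), Xbp1 (0.15) and Fkbp11 (-0.08) did not pass, and Tnfrsf17 was too dim to test. For T cells 3 of 8 markers were bright enough, 0 of them passed in limma (1, Cd4, at an unadjusted p under 0.05, with a difference of -0.16), and the sums were 200.3 to 207.9 in light zone arrays, against 197.4 to 202.3 in dark zone arrays. Myeloid markers, 5 of 12 tested, summed to 443 to 538 in light zone arrays, against 493 to 1304 in dark zone arrays. Most of that range was Lyz2, the lysozyme of myeloid cells, lower in light zone cells at -2.98. It had 43.0, 40.7, 37.7 and 89.1 in light zone arrays, against 128, 461, 466 and 824 in dark zone arrays. Of the other tested myeloid markers, Csf1r (-0.40) was lower in light zone cells, Cd68 (0.40) was higher, and Mpeg1 and Adgre1 did not pass. For Lyz2, dark zone array 1 was the lowest and dark zone array 4 the highest of its zone. Without dark zone array 1, 15 members passed, 2 having lost and 2 gained a call. Without dark zone array 4, 14 passed, 3 having lost and 2 gained a call. Lyz2 was still higher on every dark zone array kept than on any light zone array, so these counts do not measure the part of myeloid cells. Follicular dendritic and stromal markers, 4 of 7 tested, summed to 2115 to 2374 in light zone arrays, against 1092 to 1393 in dark zone arrays. Most of each sum was Cr2, which B cells also carry. It had 2097, 1937, 2090 and 1823 in light zone arrays, against 1126, 1039, 1052 and 832 in dark zone arrays. Cr2 was the only one of these markers that passed, at 0.98, and Clu, Cxcl13 and Mfge8 did not. The part of these cells in the differences of the synthetases and serine enzymes was not tested.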

How the data were processed

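Total RNA of sorted cells was measured on 8 arrays after amplification with a 3' IVT kit, per the labels' protocols. The authors deposited intensities on a linear scale that had been summarised with RMA, per the submitters' processing notes; log2 was taken from these intensities with no further scaling. The deposited table holds 45037 probe sets, of which 34945 carry 1 gene symbol in the platform annotation, 932 several and 9160 none. Each gene was represented by its brightest probe set, and genes below the 50th percentile of mean log2 intensity (27.8 on the linear scale) were not tested. Zones were compared with limma 3.58.1 (lmFit and eBayes, R 4.3.3) over all 10547 genes left, with Benjamini-Hochberg adjustment; differences are light zone minus dark zone. Array medians were 27.3 to 28.1, and 4 arrays a zone limit the precision (median SE 0.07). The procedure was tested on simulated data. Promoters came from RefSeq tables, and figures were drawn with matplotlib 3.10.9.

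The members and all gene lists were chosen with earlier results of these data known. Array values were given for Phgdh, Psat1, Psph, Asns, Aimp1 and Aimp2, for the 8 cytosolic and 4 mitochondrial synthetase genes with the largest differences, and for members called against their class. Of each other list, up to 4 passing genes with the largest difference, passing genes opposite to most of their list, and Atf4, Eef1e1, Shmt2, Mthfd2, Slc7a5 and Slc3a2 were named. Alternatives were other filters, probe set rules, scalings, thresholds, array weights, a replicate block and leaving out each array.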

Additional observations from a re-analysis of the deposited data

Results flagged for a closer look

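In 3 of the 82 groups of 4 arrays examined (41 members in 2 zones), the array farthest from the others lay farther off than Dixon's limit for the group's range, and chance gives about 1 in 20 groups. Eprs was at 1061 on light zone array 4, against 1118 to 1125 on the other light zone arrays. Hars was at 1746 on light zone array 1, against 1862 to 1883 on the others of its zone. Qars was at 1419 on light zone array 1, against 1544 to 1560 on the others. The Eprs and Qars calls were kept without these arrays, and Hars did not pass with or without its array.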

How the results depend on the processing

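Of the 15 members that passed, 10 did so whichever array was left out, and of the 25 that did not, 20 never did. Members that passed numbered 9 at an adjusted p under 0.01 (4 higher and 5 lower in light zone cells) and 1 at 1.5-fold or more (0 higher, 1 lower). The 8 lower members became 5 with no filter and 5 with medians centred, which shifted the median of all genes by 0.023. Leaving out each array gave 11 to 15 members, 5 to 8 higher and 5 to 8 lower. At 1.5-fold, 0 serine and asparagine enzymes, 0 cytosolic genes (5 at an adjusted p under 0.01), 1 mitochondrial enzyme and 14 genes of the other lists passed. With no fold limit, at an adjusted p under 0.05, leaving out each array gave 2 to 3, 5 to 9, 3 to 5 and 65 to 74 for these groups. Of all genes, 1060 passed at 1.5-fold (653 higher, 407 lower), and 1316 were lower at an adjusted p under 0.01. Again with no fold limit, leaving out each array gave 4092 to 4340 of all genes (2342 to 2509 higher, 1706 to 1914 lower). Shmt2 reversed to -0.10 with plain probe sets. In these counts the cause was not tested. The samples share only replicate numbers: same-numbered arrays had correlated deviations of 0.06 to 0.24, and all 4 light zone arrays and 3 of 4 dark zone arrays correlated best with their own number. With the replicate block 16 members passed (7 higher, 9 lower), Iars2 being added, and 4787 of all genes. With 4 arrays a zone the median SE was 0.07, and Mars2 was too dim to test.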
